A study of Saccharomyces cerevisiae with 10 samples.

Results

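The second hour of a severe salt stress was described in wild-type cells of BY4741, a laboratory strain of budding yeast (Saccharomyces cerevisiae). The 2 h libraries, from cells held in 1.5 M KCl for 2 h, were set against the 1 h libraries, from cells held in 1.5 M KCl for 1 h. Each time had 1 library from replicate time series a and 1 from series b, so 4 of the 10 libraries of the series were members, chosen by their stress label. All groups shared the strain, a haploid of mating type a that lacks working copies of HIS3, LEU2, URA3 and MET17, and growth in synthetic complete medium, at 30 °C, until OD600 reached 0.4 to 0.5, when KCl was added. The other libraries were of 0 h (before stress), 0.5 h and 1.5 h, also 2 each. Poly(A) RNA was sequenced and reads were counted on coding sequences.

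A sudden rise in external salt draws water out of yeast cells and stops growth. The Hog1 kinase pathway answers by switching on genes for glycerol, the solute that restores water balance, and for general stress defence through the Msn2/Msn4 activators, while genes for ribosomes are repressed. In severe stress translation is low and untranslated mRNA gathers with proteins in stress granules, whose formation is the subject of the series title, together with Pol32, a subunit of DNA polymerase delta, and RNase H1, which removes RNA from RNA-DNA hybrids. The comparison of 2 h with 1 h asks what was still changing once the first stress response was under way.

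Total reads on coding sequences were 3372373 and 8016636 in the 2 h libraries of series a and b, and 3862638 and 7851019 in the 1 h libraries. Levels are given as CPM (read counts relative to library total, scaled with edgeR's TMM factors), with the library of series a first and that of series b second. Reads of the deleted marker genes LEU2 and MET17 were 0 in all 10 libraries, and HIS3 and URA3 had at most 4 reads in any of the 4 libraries compared. The a-type receptor gene STE2 had 360.4 and 352 CPM at 2 h and 579.9 and 578 CPM at 1 h. All levels are shares of the poly(A) RNA sequenced, so less of a transcript per cell and fewer cells that hold it cannot be told apart.

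Transcripts continued to shift strongly in the second hour, almost evenly in both directions. Of 5943 genes tested, 2085 were higher (35.1%) and 2017 lower (33.9%) at 2 h than at 1 h, so 69% were called, at an adjusted p under 0.05 (edgeR's quasi-likelihood test, two-sided, Benjamini-Hochberg over all genes tested). Most changes were small: 2183 of the 4102 called genes moved by less than 1.5-fold, and 355 genes were at least 2-fold higher (5.97%) and 449 at least 2-fold lower (7.56%). Log2 fold changes, of 2 h over 1 h, ran from -2.58 to 3.43 with a median over all genes of 0.01. The libraries of the 2 times did not overlap in 4090 of the called genes, and both series moved the same way in 4096. A call with 2 libraries a time all but requires both, so these counts add no support to the calls. The split depends on scaling. It was 50.8% higher among called genes here, 58.4% with upper-quartile factors, and 73.7% with library size alone, which raised the median of all genes by 0.29 on the log2 scale. Every direction below is therefore relative to the median gene. Each count of rising or falling list members below is to be set beside the 35.1% and 33.9% of all genes tested.

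**Figure D1:**
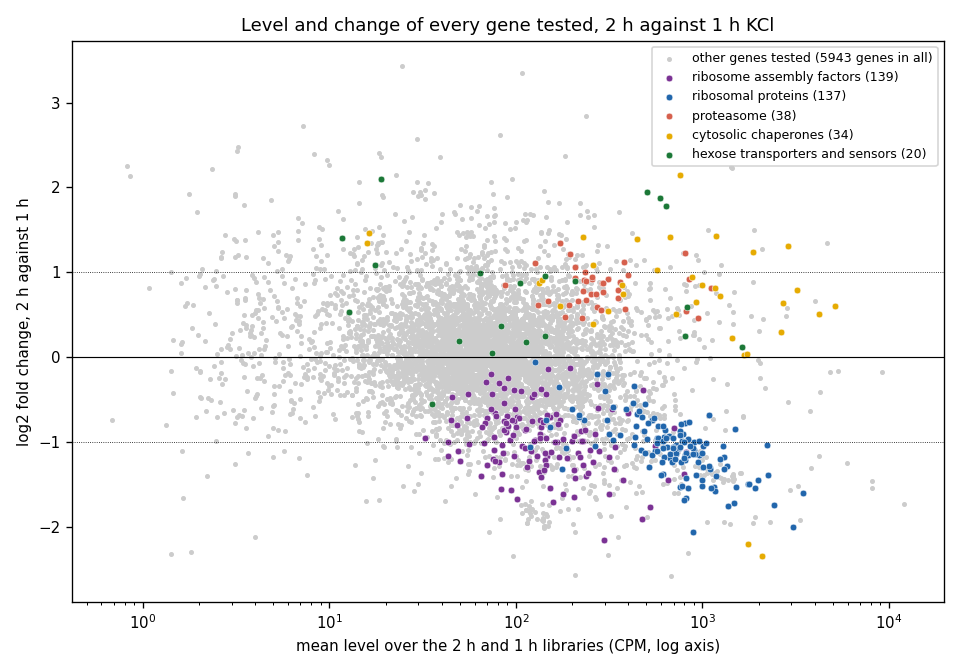
Each point is 1 of 5943 genes, with its mean level over the 2 h and 1 h libraries (CPM, log axis) and its log2 fold change of 2 h against 1 h; dotted lines mark 2-fold. Ribosomal protein and ribosome assembly genes lie below 0, proteasome genes above 0, and the 2 chaperone genes near the bottom right are SSB1 and SSB2.

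The 15 largest rises were of varied genes. LSO1, which encodes a small relative of the ribosome-binding protein Lso2, had 40.8 and 49.2 CPM in the 2 h libraries, against 4.44 and 4.13 CPM in the 1 h libraries (log2 fold change 3.43, SE 0.19, adjusted p 4.1e-12). PUT1, for the mitochondrial proline oxidase that starts proline breakdown, had 199.8 and 194 CPM at 2 h and 16.9 and 20.4 CPM at 1 h (log2 fold change 3.35, SE 0.098, adjusted p 5.6e-16). ADE17, for the enzyme of the last steps of purine synthesis, stood at 426 and 414 CPM at 2 h and 54.1 and 61.2 CPM at 1 h (log2 fold change 2.84, SE 0.063, adjusted p 1.6e-17). Separate 2 h and 1 h libraries were a condition for this ranking, so their separation is no further support. SIP4, the ninth largest rise, encodes an activator of gluconeogenic genes and had 319 and 298 CPM at 2 h and 61.4 and 57.7 CPM at 1 h (log2 fold change 2.38). PHO89, a sodium-coupled phosphate transporter of the plasma membrane, had 66.7 and 63.8 CPM at 2 h and 13.1 and 12.4 CPM at 1 h (log2 fold change 2.36). The metallothionein gene, present as the near-identical copies CUP1-1 and CUP1-2 that can share reads, gave 2193 and 2543 CPM at 2 h and 517 and 495 CPM at 1 h for CUP1-1 (log2 fold change 2.23). The rest of the 15 largest rises, DPA10, GCV1, PES4, YPR145C-A, OSW1, LDS1, SPR28 and ZNF1, lay between 2.26 and 2.73 on the log2 scale. OSW1 and LDS1 serve the spore wall and SPR28 is a septin of sporulating cells.

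The largest falls included wall, ribosome-bound chaperone and transport genes. SCW4, a cell wall protein related to glucanases, had 186 and 200.2 CPM at 2 h and 1104 and 1218 CPM at 1 h (log2 fold change -2.58, SE 0.08, adjusted p 1.2e-15). PHO3, a constitutive acid phosphatase, had 54.9 and 63.5 CPM at 2 h and 354 and 362 CPM at 1 h (log2 fold change -2.57, SE 0.069, adjusted p 1.4e-16). SSB1 and SSB2 encode the Hsp70 chaperones that bind nascent chains on the ribosome. SSB1 fell to 679 and 701 CPM at 2 h, against 3579 and 3407 CPM at 1 h (log2 fold change -2.34, SE 0.051, adjusted p 1.6e-17), and SSB2 to 625 and 624 CPM, against 2868 and 2867 CPM (log2 fold change -2.20). KAP123, an importin that carries ribosomal proteins into the nucleus, had 99.6 and 106 CPM at 2 h and 515 and 524 CPM at 1 h (log2 fold change -2.33, SE 0.058, adjusted p 6.2e-17). The 2 h and 1 h libraries did not overlap in any of these genes, as their selection required. Next came the regulator SFG1, the membrane protein gene MRH1, the RNA helicase gene DBP2, INA1, the CTP synthase gene URA7, RPL9A, the mating-type switching endonuclease gene HO, YML040W of the Ty1 retrotransposon, the a-factor gene MFA2 and RPP0, with log2 fold changes of -2.00 to -2.34.

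**Figure D2:**
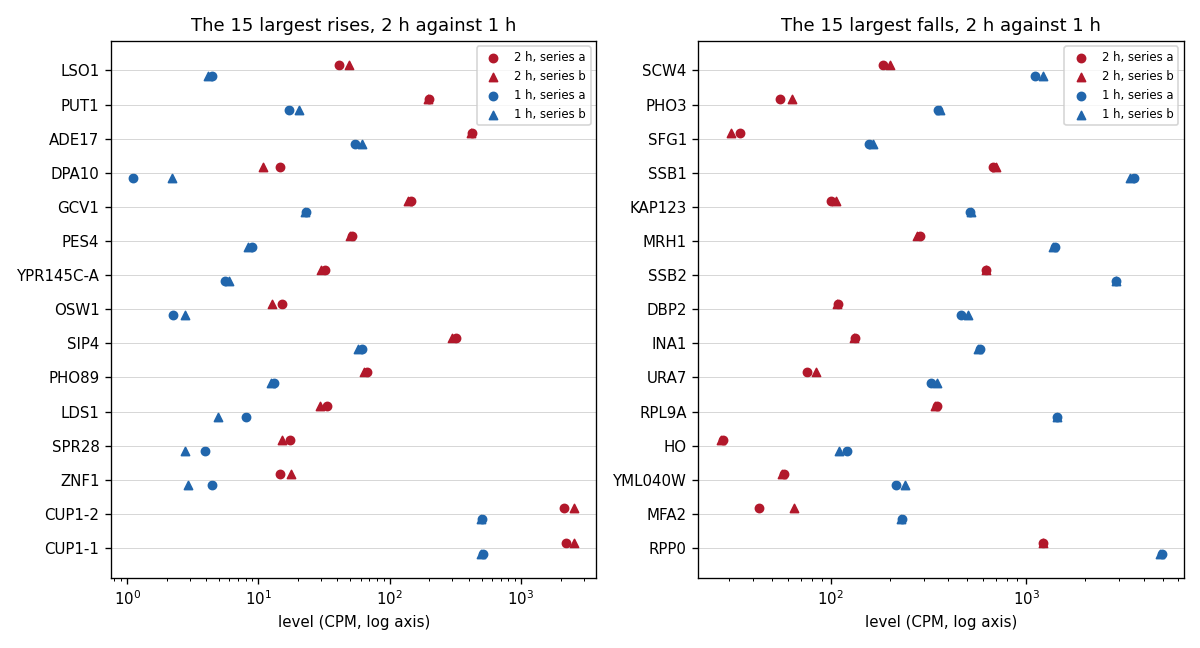
Level of the 15 largest rises (left) and 15 largest falls (right) in each of the 4 libraries (CPM, log axis; red, 2 h; blue, 1 h; circles, series a; triangles, series b). Both 2 h libraries lie on one side of both 1 h libraries in all 30 genes, which was a condition of their selection. The first is LSO1 at 40.8 and 49.2 against 4.44 and 4.13 CPM, and the last RPP0 at 1221 and 1220 against 4939 and 4815 CPM.

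Genes of cytosolic protein synthesis fell together. Among 137 ribosomal protein genes tested, 135 fell and 0 rose, where 33.9% of all genes tested fell, and their median log2 fold change was -1.07. Their summed level was 66280 and 68750 CPM in the 2 h libraries, against 150700 and 158900 CPM in the 1 h libraries. It was 157000 and 147200 CPM at 0 h and 215100 and 211600 CPM at 0.5 h, so the 1 h level was near that before stress. RPL9A, for a large-subunit protein, had 348 and 342 CPM at 2 h and 1444 and 1438 CPM at 1 h (log2 fold change -2.06, SE 0.052, adjusted p 6.2e-17). RPP0, for the stalk protein that anchors elongation factors, had 1221 and 1220 CPM at 2 h and 4939 and 4815 CPM at 1 h (log2 fold change -2.00, SE 0.044, adjusted p 1.6e-17). The members that did not pass the test were RPS27A (log2 fold change -0.19) and RPL22B (-0.05). Many of these genes exist as close copies that can share reads, and single members are less certain than the list.

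Ribosome assembly factors, which process rRNA and fold it with proteins in the nucleolus, fell in 138 of 139 genes with a median of -0.97, and 0 rose. DBP2, an RNA helicase of this list, had 109 and 108 CPM at 2 h and 464 and 502 CPM at 1 h (log2 fold change -2.16, SE 0.062, adjusted p 3.8e-16). GAR1, a core protein of the particles that pseudouridylate rRNA, had 190.4 and 208 CPM at 2 h and 765 and 737 CPM at 1 h (log2 fold change -1.91). Of 19 genes for RNA polymerases I and III, which make rRNA and tRNA, 18 fell with a median of -0.84. RPA135, the second largest subunit of polymerase I, had 178 and 176 CPM at 2 h and 589 and 612 CPM at 1 h (log2 fold change -1.77). RPA190, its largest subunit, had 165 and 156 CPM at 2 h and 427 and 443 CPM at 1 h (log2 fold change -1.45).

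All 19 cytosolic tRNA synthetase genes, whose enzymes load amino acids on tRNA, fell, with a median of -1.20 and a range of -1.59 to -0.78. DED81, the asparagine enzyme, had 208 and 231 CPM at 2 h and 665 and 669 CPM at 1 h (log2 fold change -1.59, SE 0.06, adjusted p 1.6e-14). THS1, the threonine enzyme, had 316 and 326 CPM at 2 h and 908 and 902 CPM at 1 h (log2 fold change -1.49). Translation factors fell in 38 of 40 genes with a median of -0.82. The steepest were EFT1 (-1.95), which with its copy EFT2 encodes elongation factor 2, and TEF4 (-1.94), for a subunit of elongation factor 1B. TIF4632, a form of initiation factor 4G, and DED1, an initiation helicase, did not pass the test (log2 fold changes of -0.04 and 0.10). The mitochondrial ribosome list did not share the fall: of 73 genes 17 rose and 16 fell (median 0.01). Its largest rise was of KGD4 (log2 fold change 0.665), a ketoglutarate dehydrogenase subunit that the list also holds. Those counts were less certain, with 9 and 8 called by DESeq2, 46 and 1 with library size alone, 8 rising without the 2 h library of series b, 10 rising and 10 falling without the 1 h library of series b, and 9 falling without the 1 h library of series a.

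Promoters of the assembly genes carried short sequences in common. In the 300 bases from 250 before to 50 after the start codon, read from the R64 genome, the PAC element (GATGAG, either strand) was present in 125 of 139 assembly genes (89.9%), against 1207 of all 5935 promoters read (20.3%). The RRPE element (AAAATTTT, its own reverse complement) was present in 108 of them (77.7%), against 9.05% of all promoters. Both stood within 30 bases of each other in 73 of the assembly genes (52.5%), against 2.53% of all promoters. In genes at least 2-fold lower the shares were 38.6% for PAC and 30.1% for RRPE, and in genes at least 2-fold higher 16.9% and 2.82%. With the retrotransposon frames left out, those of the lower genes were 37.7% for PAC and 34.9% for RRPE. Ribosomal protein promoters held PAC in 10.9% and RRPE in 6.57%. PAC and RRPE matches do not overlap in the stretches shown, while 2 PAC matches share a base in SDA1, and a match is a description of the sequence, not of binding. The stretches below, each read 5′ to 3′ on the strand of its gene, show how the paired elements lie in 4 assembly genes that fell, with PAC and RRPE in capitals.
DBP2, chrXIV:413478-413507, plus strand: ccgatgCTCATCgcagAAAATTTTtccttc
GAR1, chrVIII:283412-283441, minus strand: tagtgaAAAATTTTtcgaGATGAGgaaagg
SDA1, chrVII:982207-982235, minus strand: aaaatgAAAATTTTaaaCTCATCTCATCg
NOP58, chrXV:898461-898489, minus strand: tttcaacCTCATCgAAAATTTTcagaaaa
Order and orientation of the elements differed among these genes, whose log2 fold changes were -2.16, -1.91, -1.62 and -1.45 in the order shown. Over all genes tested, those with RRPE in the window had a median log2 fold change of -0.52 (537 genes, 67.4% lower), and those without it 0.04 (5398 genes, 30.6% lower). Those with PAC had a median of -0.19 (1207 genes, 48.1% lower), and those without it 0.04 (4728 genes, 30.3% lower). The genes with RRPE include 108 assembly genes and those with PAC 125, so part of each difference repeats the fall of that list. No median without that list is given.

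Genes for protein breakdown by the proteasome rose together. All 38 proteasome-list genes tested rose, where 35.1% of all genes tested rose, with a median log2 fold change of 0.84 and a range of 0.47 to 1.35. Their summed level was 16320 and 16240 CPM at 2 h, against 9409 and 9252 CPM at 1 h, so the 2 h libraries lay well clear of the 1 h libraries. PRE1, a core-particle subunit, had 246 and 246 CPM at 2 h and 100.5 and 94.2 CPM at 1 h (log2 fold change 1.35, SE 0.06, adjusted p 1.5e-13). UBI4, the polyubiquitin gene used in stress, had 1148 and 1102 CPM at 2 h and 474 and 483 CPM at 1 h (log2 fold change 1.23, SE 0.061, adjusted p 7.1e-13). RPT2, a base ATPase, rose by 1.12 on the log2 scale, and RPN1, a base scaffold, by 0.47, the smallest rise of the list. RPN4, the transcription activator of the proteasome genes, had 991 and 947 CPM at 2 h and 674 and 652 CPM at 1 h (log2 fold change 0.55, SE 0.054, adjusted p 2.4e-08).

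The element that Rpn4 is known to bind, PACE (GGTGGCAAA, either strand), was searched in the same windows after the values had been seen. It was present in 29 of the 38 proteasome-list promoters (76.3%), against 71 of 5935 promoters in all (1.2%). The windows below show it in capitals in the member with the largest rise (PRE1), a further core subunit, a base subunit, polyubiquitin and the member with the smallest rise (RPN1).
PRE1, chrV:177683-177711, plus strand: aaatctttacGGTGGCAAAaaataaagaa
PRE3, chrX:435035-435063, plus strand: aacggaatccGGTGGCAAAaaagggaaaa
RPT2, chrIV:437906-437934, plus strand: gtttttctccGGTGGCAAAtgtctctttt
UBI4, chrXII:65349-65377, minus strand: ggctccgggtTTTGCCACCtttgaattcg
RPN1, chrVIII:164838-164866, minus strand: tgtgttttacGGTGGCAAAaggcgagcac
UBI4 holds the reverse complement and the other 4 the element as written, and the first base of the match lies between 118 and 160 bases before the start codon in these genes. Outside the proteasome list, 42 promoters held PACE, and 27 of those genes were higher (64.3%) and 6 lower, with a median log2 fold change of 0.44.

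Most genes for chaperones that refold damaged protein rose, in contrast to the ribosome-bound SSB1 and SSB2 of the same list. Of 34 cytosolic and mitochondrial chaperone genes tested, 30 rose and 2 fell, with a median log2 fold change of 0.80. SSA3, a stress-inducible Hsp70, had 1268 and 1217 CPM at 2 h and 284 and 277 CPM at 1 h (log2 fold change 2.15, SE 0.055, adjusted p 9.1e-17). HSP82, the inducible Hsp90, had 4255 and 3906 CPM at 2 h and 1683 and 1619 CPM at 1 h (log2 fold change 1.30), and its co-chaperone gene CPR6 rose by 1.41. HSP26, a small heat-shock protein that binds unfolded chains, rose by 1.43. SSE1, an Hsp70 exchange factor, and HSP42, another small heat-shock protein, did not pass the test: SSE1 had 1778 and 1758 CPM at 2 h and 1718 and 1719 CPM at 1 h, and HSP42 1631 and 1723 CPM at 2 h and 1649 and 1645 CPM at 1 h. Both were called higher with library size alone, and SSE1 also with upper-quartile factors. HSP82, CPR6 and HSP26 were picked after their values were seen.

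In the endoplasmic reticulum, 10 of 18 chaperone genes rose and 2 fell (median 0.26), led by KAR2, the luminal Hsp70, with 1659 and 1584 CPM at 2 h and 825 and 816 CPM at 1 h (log2 fold change 0.98, SE 0.05, adjusted p 1e-12). HAC1, the activator of the unfolded protein response, had 328 and 341 CPM at 2 h and 488 and 507 CPM at 1 h (log2 fold change -0.57). Its activity depends on splicing, which these counts do not measure. Autophagy genes, which enclose cell material for breakdown in the vacuole, rose in 24 of 35 cases and fell in 2 (1 without the 1 h library of series b), with a median of 0.49. ATG41, needed for vesicle formation, had 218 and 232 CPM at 2 h and 52.8 and 61.7 CPM at 1 h (log2 fold change 1.95, SE 0.071, adjusted p 1e-14). ATG2, a lipid transfer protein, rose by 1.52, while ATG27, a membrane protein of the Atg9 vesicles, fell by 0.64 (log2).

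**Figure D3:**
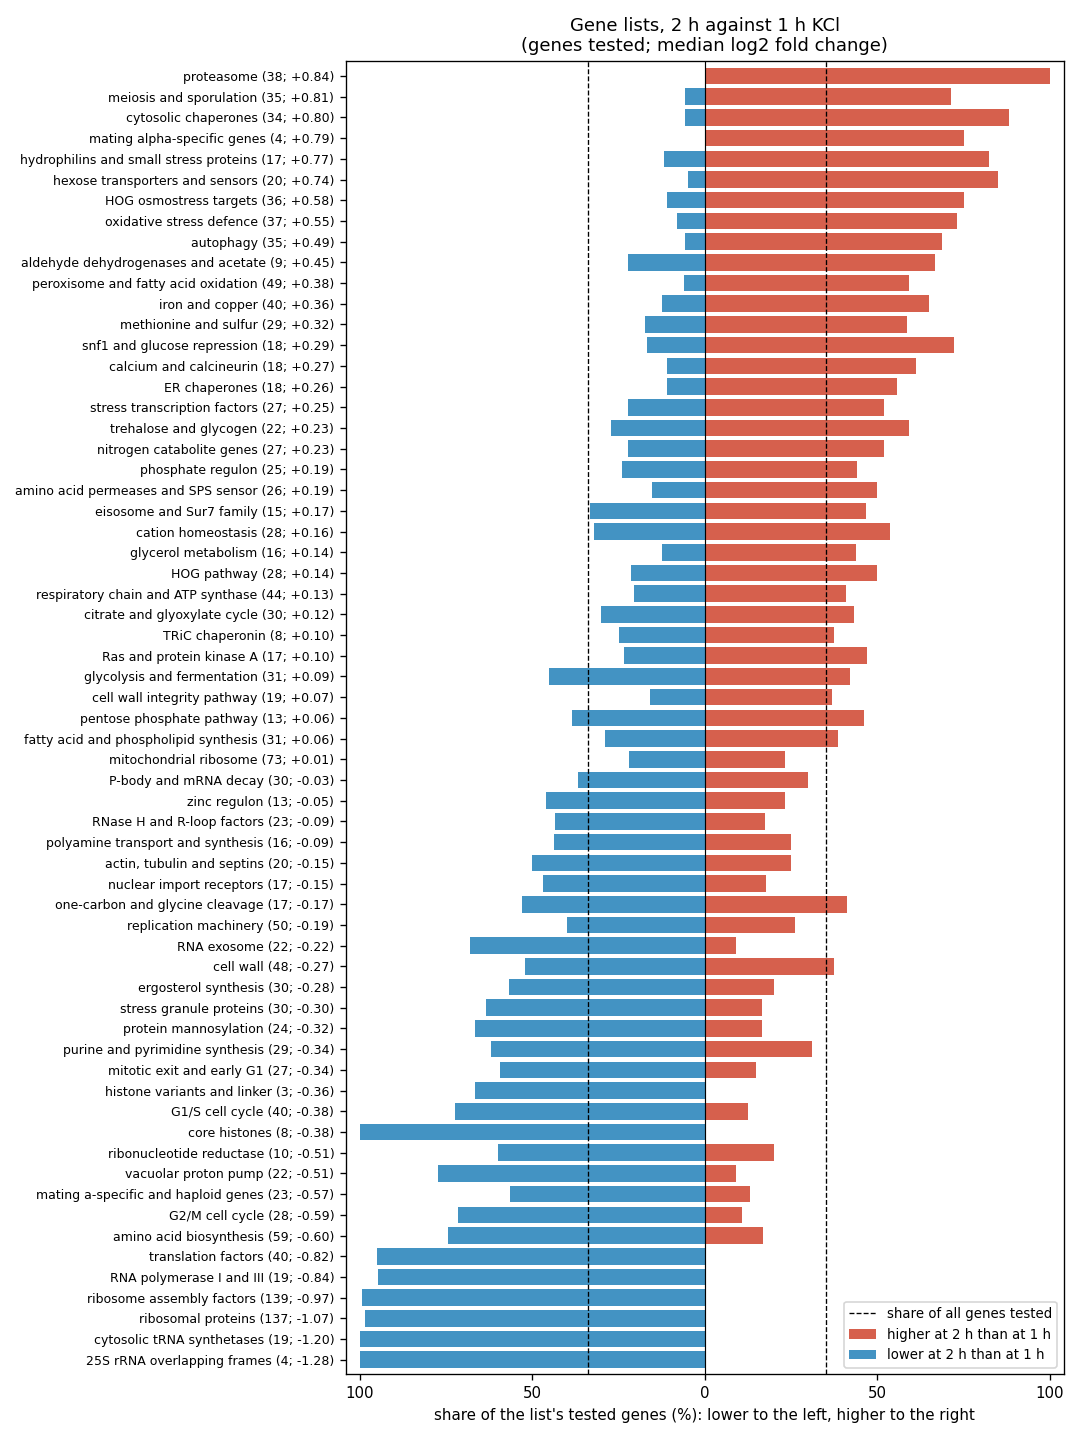
For each of 63 gene lists, bars give the percentage of tested members called higher (right, red) and lower (left, blue) at 2 h than at 1 h; dashed lines mark the shares among all genes tested, 35.1% and 33.9%. Lists are ordered by median log2 fold change, shown with the number tested, from 0.84 for the proteasome to -1.28 for 4 frames that overlap 25S rRNA.

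Genes of the osmotic response parted in the second hour. Of 36 known Hog1 targets tested, 27 rose and 4 fell, with a median log2 fold change of 0.58, and the summed level was 38980 and 40320 CPM at 2 h, against 29370 and 28790 CPM at 1 h. HSP12, a membrane-protecting hydrophilin, had 6443 and 6945 CPM at 2 h and 2661 and 2593 CPM at 1 h (log2 fold change 1.35, SE 0.05, adjusted p 1.3e-14). SPG4, a stationary-phase gene, had 116 and 112 CPM at 2 h and 38.0 and 37.6 CPM at 1 h (log2 fold change 1.59). PAI3, an inhibitor of the vacuolar protease A, had 122 and 151 CPM at 2 h and 48.0 and 49.6 CPM at 1 h (log2 fold change 1.51). The sodium pump gene ENA1 rose to 532 and 521 CPM at 2 h, against 347 and 356 CPM at 1 h (log2 fold change 0.58), and STL1, the glycerol importer, to 1423 and 1376 CPM at 2 h, against 1054 and 1045 CPM at 1 h (log2 fold change 0.41).

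GPD1, for the enzyme that commits sugar to glycerol, moved the other way. It had 2862 and 3017 CPM at 2 h and 4605 and 4556 CPM at 1 h (log2 fold change -0.64, SE 0.044, adjusted p 1.1e-10), and did not fall to the 378 and 373 CPM of the 0 h libraries. MPC3, a mitochondrial pyruvate carrier subunit, had 415 and 477 CPM at 2 h and 743 and 728 CPM at 1 h (log2 fold change -0.71, SE 0.06, adjusted p 2.2e-09). GPP2 and GPP1, the glycerol-3-phosphatases of the next step, did not pass the test: GPP2 had 1949 and 2029 CPM at 2 h and 2101 and 2060 CPM at 1 h, and GPP1 1954 and 1990 CPM at 2 h and 2064 and 1970 CPM at 1 h. CTT1, the cytosolic catalase, was nearly level with 939 and 913 CPM at 2 h and 924 and 948 CPM at 1 h (log2 fold change -0.02, SE 0.052, adjusted p 0.79), and its libraries overlapped. The calls on CTT1, GPP1 and GPP2 depended on scaling, as these genes were called higher with library size alone. DAK1, a dihydroxyacetone kinase, rose to 1349 and 1376 CPM at 2 h, against 682 and 678 CPM at 1 h (log2 fold change 1.00), and DAK2 to 30.3 and 30.4 CPM, against 6.67 and 8.82 CPM (log2 fold change 1.91).

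The kinase gene HOG1 itself had 189.6 and 185 CPM at 2 h and 174 and 169.5 CPM at 1 h and did not pass the test (log2 fold change 0.12, SE 0.058, adjusted p 0.072), though it did with upper-quartile factors and with library size alone. Among 28 genes of the pathway 14 rose and 6 fell (35.1% and 33.9% over all genes tested), with a median of 0.14. The downstream factor gene SMP1 and the kinase gene RCK1 rose by 0.81 and 0.76, while the membrane sensor gene SHO1 fell by 0.65 on the log2 scale. Hydrophilins and small stress proteins, which guard cells against water loss, rose in 14 of 17 genes and fell in 2, with a median of 0.77. TMA10 had 511 and 588 CPM at 2 h and 169 and 168 CPM at 1 h (log2 fold change 1.71). The 2 that fell, NOP6 (-1.40) and RPL42A (-0.64), serve the ribosome. For trehalose and glycogen, 13 of 22 genes rose and 6 fell (median 0.23). NTH2, a trehalase, had 285 and 279 CPM at 2 h and 90.8 and 94.5 CPM at 1 h (log2 fold change 1.60).

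The stress response element bound by Msn2 and Msn4 (STRE, AGGGG, either strand) stood in 17 of the 36 Hog1-target promoters (47.2%), in 27.6% of the promoters of genes at least 2-fold higher, in 11.8% of those at least 2-fold lower and in 21.6% of all promoters read. With the retrotransposon frames left out, whose copies are near-identical, the share among genes at least 2-fold lower was 13.7%. Among the Hog1 targets the median log2 fold change was 0.53 in the 17 genes with the element and 0.68 in the 19 without it. Of those with it 14 rose and 1 fell, and of those without it 13 rose and 3 fell. Over all genes tested, those with STRE had a median of 0.15 (1281 genes, 45.0% higher). Those without it had a median of -0.03 (4654 genes, 32.4% higher). The windows below show the element, in capitals, for HSP12, which has 2 matches, and for CTT1 and GPD1, which did not rise.
HSP12, chrVI:107012-107040, plus strand: ctagatctacagCCCCTggaaaatcgttt
HSP12, chrVI:107054-107082, plus strand: gttccggtcgtcCCCCTcttgatctgaaa
CTT1, chrVII:654489-654517, plus strand: catttatcgtatCCCCTactgctacacgt
GPD1, chrIV:411779-411807, plus strand: ttgtacacccccCCCCTccacaaacacaa
All 4 are the reverse complement, CCCCT. The match in GPD1 starts 34 bases before the start codon, that in CTT1 133 bases, and those in HSP12 232 and 190 bases before it. The CCAAT box (CCAAT, either strand), known from respiration genes, was present in 40.0% of promoters of genes at least 2-fold higher and in 43.2% of all promoters.

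**Figure D4:**
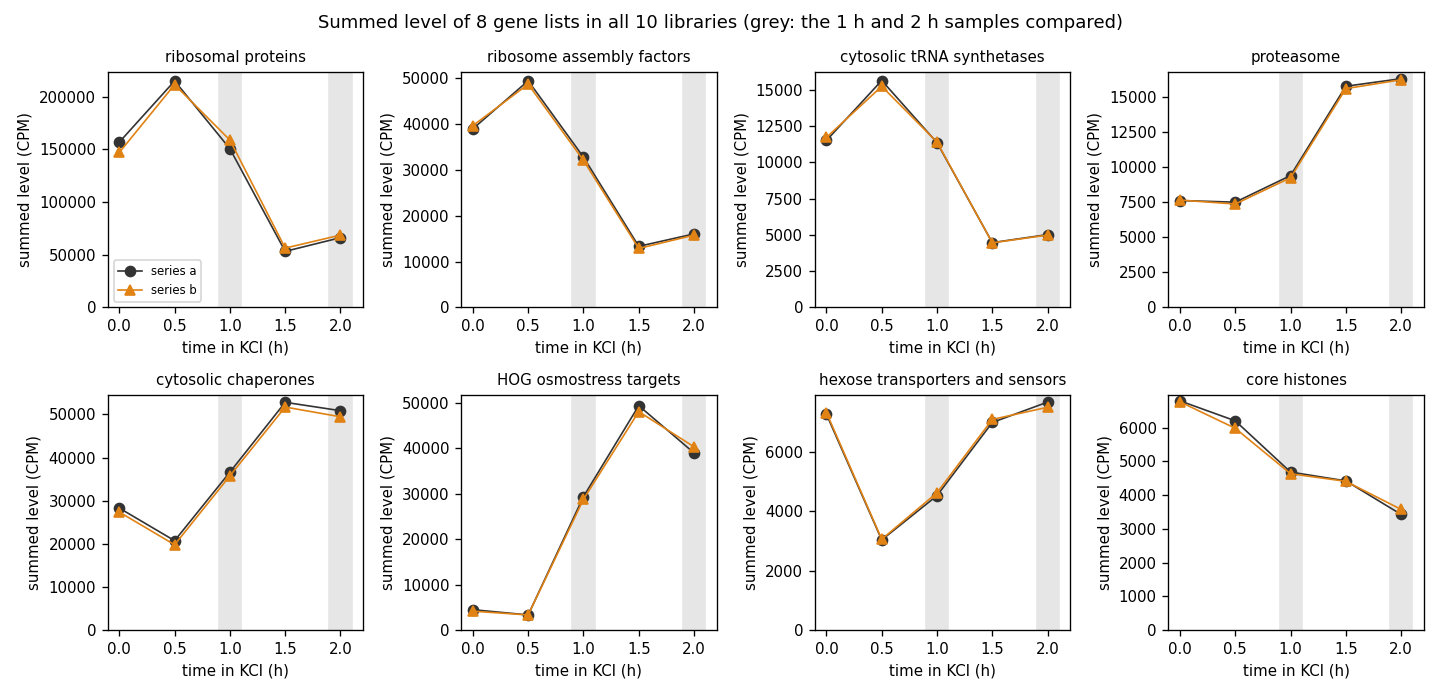
Summed level (CPM, axis from 0) of 8 gene lists at 0, 0.5, 1, 1.5 and 2 h in series a (circles) and b (triangles), with the 1 h and 2 h samples shaded. The proteasome list stands at 16320 and 16240 CPM at 2 h and 9409 and 9252 CPM at 1 h, the ribosomal protein list at 66280 and 68750 CPM at 2 h and 150700 and 158900 CPM at 1 h.

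Much of the change was in place at 1.5 h. Against 1 h, 2028 genes were higher (34.1%) and 2023 lower (34%) at 1.5 h, 68.2% in all, with 5.81% at least 2-fold higher and 9.37% at least 2-fold lower. Between 2 h and 1.5 h, 922 were higher (15.5%) and 563 lower (9.47%), 25% in all, with 1 gene at least 2-fold higher (0.0168%) and 7 at least 2-fold lower (0.118%). Without the 2 h library of series b, 555 were higher and 304 lower at 2 h than 1.5 h. The intervals share libraries with the main comparison, so the values are given side by side and not correlated. Of the 355 genes at least 2-fold higher at 2 h than 1 h, both 1.5 h libraries lay between the 1 h and 2 h libraries in 158 and beyond the 2 h libraries in 66. Of the 449 at least 2-fold lower, they lay between in 126 and beyond the 2 h libraries in 223.

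Ribosome genes were lower still at 1.5 h: 137 of 137 ribosomal protein genes were lower at 1.5 h than 1 h (median -1.39), and 100 were higher at 2 h than 1.5 h (median 0.31). Assembly factors gave medians of -1.30 for 1.5 h against 1 h and 0.30 for 2 h against 1.5 h, with 92 of 139 higher at 2 h. Hog1 targets ran the opposite way, with 33 of 36 higher at 1.5 h than 1 h (median 0.75) and 23 lower at 2 h than 1.5 h (median -0.23). GPD1 had 4863 and 4812 CPM at 1.5 h, a log2 fold change of 0.08 against 1 h and of -0.72 for 2 h against 1.5 h (adjusted p 2.1e-09). STL1 had 1988 and 2017 CPM at 1.5 h, above both other times. Proteasome genes showed a median of 0.74 for 1.5 h against 1 h and 0.04 for 2 h against 1.5 h. Core histone genes had 8 of 8 members lower at 2 h than 1.5 h (median -0.32).

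Most transcripts for hexose transporters and sensors rose. Of 20 hexose transporter and sensor genes tested, 17 rose and 1 fell, with a median log2 fold change of 0.74. HXT2, a high-affinity glucose transporter, had 815 and 782 CPM at 2 h and 203 and 211 CPM at 1 h (log2 fold change 1.94, SE 0.058, adjusted p 6.2e-16). HXT10, another member of the family, had 31.6 and 28.9 CPM at 2 h and 8.61 and 6.06 CPM at 1 h. GAL2, the galactose permease, had 30.3 and 27.6 CPM at 2 h and 41.9 and 41.9 CPM at 1 h (log2 fold change -0.55). Among genes of acetate use, ACS1, an acetyl-CoA synthetase repressed by glucose, had 208 and 193 CPM at 2 h and 69.4 and 72.8 CPM at 1 h (log2 fold change 1.48), and ALD3, a stress-induced aldehyde dehydrogenase, 2417 and 2427 CPM at 2 h and 1328 and 1292 CPM at 1 h (log2 fold change 0.89).

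Peroxisome and fatty acid oxidation genes rose in 29 of 49 cases and fell in 3 (median 0.38). Over all genes tested 35.1% rose and 33.9% fell. POT1, the thiolase of beta-oxidation, had 112 and 123 CPM at 2 h and 31.9 and 26.6 CPM at 1 h (log2 fold change 2.06, SE 0.099, adjusted p 4.5e-13). CAT2, a carnitine acetyltransferase that carries acetyl units between compartments, rose by 1.47. Of 30 citrate and glyoxylate cycle genes 13 rose and 9 fell (median 0.12), and with library size alone 20 rose and 5 fell. Of 44 respiratory chain genes 18 rose and 9 fell (median 0.13), and with library size alone 32 rose and 3 fell. ACO1, mitochondrial aconitase, had 396 and 386 CPM at 2 h and 752 and 768 CPM at 1 h (log2 fold change -0.96). ATP1, the alpha subunit of ATP synthase, had 861 and 789 CPM at 2 h and 1410 and 1250 CPM at 1 h (log2 fold change -0.69).

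Glycolysis and fermentation genes went both ways. Of 31 genes tested 13 rose and 14 fell (35.1% and 33.9% over all genes tested), with a median of 0.09. With library size alone 19 rose and 8 fell. PDC1, the main pyruvate decarboxylase of fermenting cells, had 5578 and 5587 CPM at 2 h and 18710 and 18390 CPM at 1 h (log2 fold change -1.73, SE 0.038, adjusted p 1.6e-17). CDC19, the main pyruvate kinase, had 3477 and 3547 CPM at 2 h and 8433 and 8281 CPM at 1 h (log2 fold change -1.25, SE 0.044, adjusted p 6.8e-15). HXK1, a hexokinase repressed by glucose, had 1603 and 1566 CPM at 2 h and 552 and 569 CPM at 1 h (log2 fold change 1.50, SE 0.054, adjusted p 8.8e-15), while HXK2, its partner in glucose-grown cells, fell to 506 and 499 CPM at 2 h, against 749.8 and 745 CPM at 1 h (log2 fold change -0.57). Further pairs were picked after their values were seen, and the difference within a pair was not tested. The second pyruvate kinase gene PYK2 changed by 1.02 and CDC19 by -1.25, and the enolase genes ENO1 and ENO2 by 1.27 and -0.41. The glyceraldehyde-phosphate dehydrogenase genes TDH1 and TDH3 changed by 1.20 and -0.18, the last of which is smaller than the shift between scalings. ENO1 had means of 3138 CPM at 0 h, 1222 CPM at 1 h and 2953 CPM at 2 h. TDH1 had 1364, 557 and 1280 CPM at these times, so both rises led back to near the 0 h level. The transketolase genes TKL2 and TKL1 gave 0.52 and -1.14, and the phosphoglucomutase genes PGM2 and PGM1 0.53 and -1.21.

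**Figure D5:**
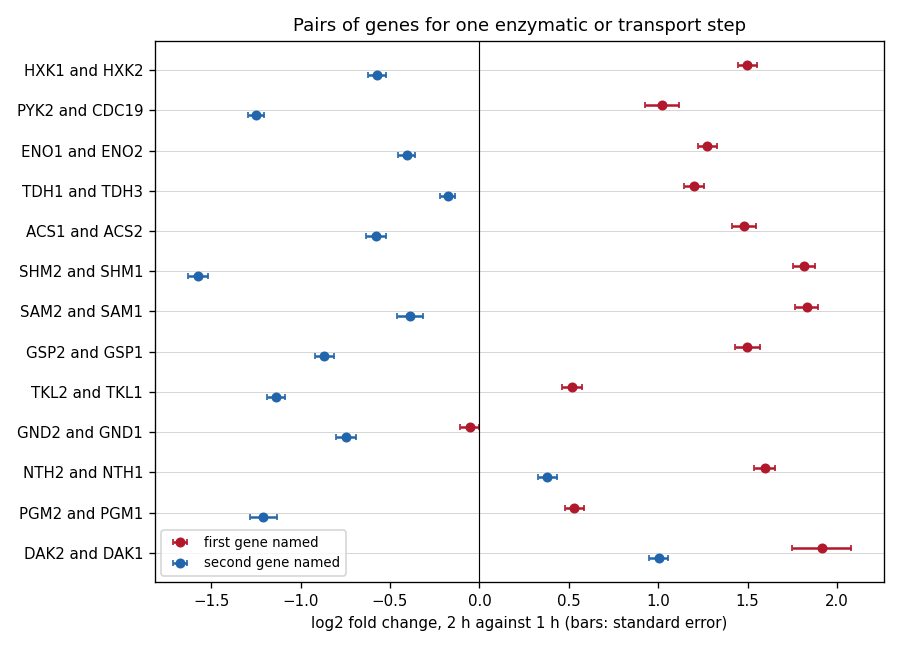
Log2 fold change of 2 h against 1 h with its standard error for 13 pairs of genes that encode forms of one protein, chosen after their values were seen (red, first gene named; blue, second). SHM2 lies at 1.82 and SHM1 at -1.57, HXK1 at 1.50 and HXK2 at -0.57; both members rose in the NTH and DAK pairs, and GND2 did not pass the test.

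Genes of one-carbon metabolism, which moves single-carbon units on folate, went both ways. SHM2, the cytosolic serine hydroxymethyltransferase, had 349 and 338 CPM at 2 h and 93.6 and 99.8 CPM at 1 h (log2 fold change 1.82, SE 0.06, adjusted p 3e-15). SHM1, the mitochondrial enzyme, had 120.3 and 128 CPM at 2 h and 369.9 and 376 CPM at 1 h (log2 fold change -1.57, SE 0.056, adjusted p 7.9e-15). MIS1, the mitochondrial folate enzyme that interconverts one-carbon units, fell to 113 and 129.8 CPM at 2 h, against 372 and 377 CPM at 1 h (log2 fold change -1.61). GCV1, a subunit of the glycine cleavage complex of mitochondria, had 145 and 137 CPM at 2 h and 23.1 and 22.6 CPM at 1 h (log2 fold change 2.62, SE 0.092, adjusted p 5.8e-15). Of 17 genes in this list 7 rose and 9 fell (35.1% and 33.9% over all genes tested). Their median of -0.17 turned to 0.11 with library size alone.

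Purine and pyrimidine synthesis genes also went both ways. In 29 genes 9 rose and 18 fell (median -0.34), where 35.1% of all genes tested rose and 33.9% fell. Besides ADE17, ADE1 of the purine trunk had 155 and 152 CPM at 2 h and 75.3 and 70.1 CPM at 1 h (log2 fold change 1.08). GUA1, the GMP synthase, had 211 and 222 CPM at 2 h and 785 and 811 CPM at 1 h (log2 fold change -1.88), and URA7 75.0 and 84.1 CPM at 2 h and 326 and 348 CPM at 1 h (log2 fold change -2.07). Methionine and sulfur genes rose in 17 of 29 cases and fell in 5 (median 0.32). MET6, methionine synthase, had 357 and 383 CPM at 2 h and 112 and 114 CPM at 1 h (log2 fold change 1.72, SE 0.058, adjusted p 4.5e-15). SAM2, an S-adenosylmethionine synthetase, had 239 and 226 CPM at 2 h and 63.6 and 65.7 CPM at 1 h (log2 fold change 1.83), while its partner SAM1 fell by 0.39 on the log2 scale, a call lost with library size alone.

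Amino acid biosynthesis genes fell in 44 of 59 cases and rose in 10, with a median of -0.60. ILV3, for branched-chain amino acids, had 367 and 363 CPM at 2 h and 1101 and 1116 CPM at 1 h (log2 fold change -1.60). LEU9, an isopropylmalate synthase of leucine synthesis, fell by 1.73 on the log2 scale, whereas LEU1, of the next step, rose to 559 and 566 CPM at 2 h, against 296 and 317 CPM at 1 h (log2 fold change 0.87). Nitrogen catabolite genes rose in 14 of 27 cases and fell in 6 (median 0.23), where 35.1% of all genes tested rose and 33.9% fell. PUT1 was far ahead, and the asparaginase gene ASP1 was the largest fall (-1.79). The methionine permease gene MUP3 rose to 89.2 and 85.9 CPM at 2 h, against 28.3 and 27.6 CPM at 1 h (log2 fold change 1.65). CAN1, the arginine permease, had 3.92 and 8.16 CPM at 2 h and 37.5 and 13.5 CPM at 1 h (log2 fold change -1.69, SE 0.44), with replicates that differed widely at both times.

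Iron and copper genes rose in 26 of 40 cases and fell in 5 (median 0.36). FIT2, a cell wall mannoprotein that retains iron siderophores, had 121 and 119 CPM at 2 h and 27.8 and 33.9 CPM at 1 h (log2 fold change 1.92, SE 0.088, adjusted p 2.2e-13), while FTR1, the high-affinity iron permease, had 409 and 400.4 CPM at 2 h and 686 and 671 CPM at 1 h (log2 fold change -0.75). PMA1, the plasma membrane proton pump that drives nutrient uptake, had 1703 and 1690 CPM at 2 h and 4771 and 4919 CPM at 1 h (log2 fold change -1.51, SE 0.04, adjusted p 1.3e-16), and its regulator gene PMP1 fell by 1.27. KHA1, a putative potassium-proton antiporter, rose to 141 and 142 CPM at 2 h, against 60.8 and 67.9 CPM at 1 h (log2 fold change 1.11). Of 22 genes of the vacuolar proton pump and its assembly 17 fell and 2 rose (median -0.51), with VMA1, the catalytic subunit, at 621 and 631 CPM at 2 h and 1363 and 1401 CPM at 1 h (log2 fold change -1.14). CMK2, a calmodulin-dependent kinase gene switched on by calcineurin, rose to 213 and 226 CPM at 2 h, against 67.8 and 71.7 CPM at 1 h (log2 fold change 1.65), and the vacuolar calcium pump gene PMC1 rose by 1.11. At 0 h CMK2 had 311.5 and 310.1 CPM, so its 2 h level was still below that before stress.

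Oxidative defence genes rose in 27 of 37 cases and fell in 3 (median 0.55). TRX2, the stress-inducible thioredoxin, had 353 and 385 CPM at 2 h and 112 and 122 CPM at 1 h (log2 fold change 1.65, SE 0.061, adjusted p 1.3e-14). MXR1, which repairs oxidised methionine, had 48.6 and 49.6 CPM at 2 h and 11.4 and 13.9 CPM at 1 h (log2 fold change 1.92). Of 31 fatty acid and phospholipid genes 12 rose and 9 fell (median 0.06), against 35.1% and 33.9% of all genes tested. With library size alone 21 rose and 3 fell (median 0.35). INO1, the inositol-3-phosphate synthase that responds to inositol supply, had 277 and 251 CPM at 2 h and 80.0 and 70.7 CPM at 1 h (log2 fold change 1.82, SE 0.074, adjusted p 4.2e-14), and OPI3, a phosphatidylcholine-forming methyltransferase, rose by 1.53. ERG11, the lanosterol demethylase of ergosterol synthesis, fell to 336 and 333 CPM at 2 h, against 763 and 783 CPM at 1 h (log2 fold change -1.21).

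Cell cycle genes were mostly lower. Of 40 G1/S genes 29 fell and 5 rose (median -0.38; 3 rose without the 2 h library of series a or the 1 h library of series b), and of 28 G2/M genes 20 fell and 3 rose (median -0.59). With library size alone 18 G1/S genes fell and 9 rose (median -0.09), and 15 G2/M genes fell and 6 rose (median -0.30). RNR1, the large subunit of ribonucleotide reductase, had 147 and 129 CPM at 2 h and 381 and 398 CPM at 1 h (log2 fold change -1.52, SE 0.064, adjusted p 7.1e-14). POL30, the replication clamp, had 78.7 and 76.6 CPM at 2 h and 169 and 149 CPM at 1 h (log2 fold change -1.02). The mitotic cyclin genes CLB1 and CLB2 fell: CLB1 had 36.4 and 33.4 CPM at 2 h and 130.5 and 127 CPM at 1 h (log2 fold change -1.90, SE 0.078, adjusted p 4.7e-14), and CLB2 31.4 and 31.0 CPM at 2 h and 78.3 and 81.8 CPM at 1 h (log2 fold change -1.37). GIC2, a polarity protein of bud emergence, fell by 1.81. All 8 core histone genes fell, with log2 fold changes of -0.78 (HTB2) to -0.24 (HTB1) and a median of -0.38, and 3 of them were called with library size alone. Cell wall genes went both ways, 18 of 48 rising and 25 falling, with PIR3, a wall-linking protein, at 188 and 189 CPM at 2 h and 59.1 and 58.7 CPM at 1 h (log2 fold change 1.68) and UTH1 at 907 and 986 CPM at 2 h and 3596 and 3695 CPM at 1 h (log2 fold change -1.94).

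Genes of other cell states also shifted. Of 35 meiosis and sporulation genes, which a haploid culture does not need, 25 rose and 2 fell (median 0.81; 1 fell without either series b library), and their summed level was 1670 and 1594 CPM at 2 h, against 936 and 956 CPM at 1 h. MND1, a meiotic recombination protein, had 53.4 and 42.8 CPM at 2 h and 11.1 and 11.3 CPM at 1 h (log2 fold change 2.06, SE 0.14, adjusted p 1.6e-10). IME1, the activator that starts meiosis, and NDT80, that of its middle phase, did not pass the test (log2 fold changes of 0.02 and -0.02). Of 23 a-specific and haploid mating genes 13 fell and 3 rose (median -0.57), where 33.9% of all genes tested fell and 35.1% rose. BAR1, the protease that destroys alpha-factor, had 93.1 and 93.3 CPM at 2 h and 286 and 270.4 CPM at 1 h (log2 fold change -1.57, SE 0.057, adjusted p 1e-14). Of the 4 alpha-specific genes 3 rose, with STE3, the a-factor receptor of alpha cells, at 48.4 and 43.2 CPM at 2 h and 19.4 and 19.1 CPM at 1 h (log2 fold change 1.23), MF(ALPHA)1 at 13.3 and 12.5 CPM at 2 h and 3.89 and 5.37 CPM at 1 h, and SAG1 at 70.3 and 69.5 CPM at 2 h and 55.8 and 54.6 CPM at 1 h. MF(ALPHA)2 did not pass the test and was called higher with library size alone.

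Of the genes in the series title, POL32 had 24.3 and 22.9 CPM at 2 h and 29.2 and 26.6 CPM at 1 h and did not pass the test (log2 fold change -0.23, SE 0.12, adjusted p 0.094); its sign turned with library size alone. RNH1, for RNase H1, had 43.1 and 43.1 CPM at 2 h and 55.5 and 56.5 CPM at 1 h (log2 fold change -0.38, SE 0.087, adjusted p 0.00074), and this call was lost with library size alone. RNH201, the catalytic subunit of RNase H2, had 24.1 and 26.0 CPM at 2 h and 56.4 and 58.7 CPM at 1 h (log2 fold change -1.19, SE 0.13, adjusted p 1e-07). Among 23 RNase H and R-loop genes 10 fell and 4 rose, where 33.9% of all genes tested fell and 35.1% rose. Their median of -0.09 turned to 0.20 with library size alone. Without the 1 h library of series b 2 rose and the median was -0.21. SGS1, a helicase, rose to 135 and 132 CPM at 2 h, against 82.8 and 93.7 CPM at 1 h (log2 fold change 0.57), and SRO9, an RNA-binding protein, fell by 1.10.

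Genes for stress granule proteins fell in 19 of 30 cases and rose in 5 (median -0.30). Among all genes tested 33.9% fell and 35.1% rose. PAB1, the poly(A)-binding protein, had 406 and 405 CPM at 2 h and 1121 and 1154 CPM at 1 h (log2 fold change -1.49, SE 0.054, adjusted p 9.9e-15). SCP160, an RNA-binding protein of the endoplasmic reticulum, had 197 and 198 CPM at 2 h and 518 and 558 CPM at 1 h (log2 fold change -1.45). PBP4 and PSP2 rose by 0.56 and 0.54. The granule marker gene PBP1 did not pass the test (log2 fold change -0.02). The list holds several translation factors that are also counted above, and with library size alone 12 members fell and 8 rose. P-body and mRNA decay genes were split, 9 of 30 rising and 11 falling (median -0.03, positive with upper-quartile factors, with library size alone and without the 1 h library of series b). EDC2, an activator of decapping, had 130.0 and 149 CPM at 2 h and 69.7 and 66.0 CPM at 1 h (log2 fold change 1.07), and PAT1, a decay scaffold, 166 and 175 CPM at 2 h and 319.9 and 327 CPM at 1 h (log2 fold change -0.92).

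Reading frames inside repeated or ribosomal DNA fell too, and their reads may be shared among copies. The 4 frames that overlap 25S rRNA genes took 0.558% and 0.614% of reads at 2 h and 1.13% and 1.14% at 1 h, and each fell, with log2 fold changes of -1.31 to -1.17. Of 89 retrotransposon frames, a group formed after the values were seen, 83 fell and 3 rose, and 61 of them are among the 449 genes at least 2-fold lower. Their summed level was 27700 and 26650 CPM at 2 h, against 64380 and 68590 CPM at 1 h. Their copies are near-identical and 81 of the 89 overlap another coding sequence, so single frames are uncertain. With all overlapping coding sequences left out, 387 genes were at least 2-fold lower.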

How the data were processed

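The authors deposited reads per coding sequence and library, raw by their column name per the file headers. Since 2.77% ended in 0.5, these deposited values were handled as estimated counts and rounded to whole numbers. The submitters' processing notes name build R64. For aligner, counting tool and strandedness, the sources used here give nothing. The deposited RPKM values were not used. Gene and mRNA lines (1302) and identical second copies (4693) were dropped, leaving 5989 coding sequences in 10 libraries, of which 5981 matched R64 positions and 206 overlapped another. No other per-sample column was left out.

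All 10 libraries were fitted with edgeR 4.0.16 (quasi-likelihood, filterByExpr, TMM, time group as the only term). The filter left out 46 coding sequences, and libraries of all times entered the filter, the scaling and the estimate of the spread. The biological coefficient of variation was 4.05%. A call needed an adjusted p below 0.05. The design text calls the series independent replicate experiments but does not say how cultures were started, so p-values measure the spread between 2 libraries a time. Letters a and b mark a time series: how far series a lay from each time's mean correlated with Pearson's r of 0.008 between 2 h and 1 h, across 5753 genes that are not independent replicates (-0.093 to 0.262 over 10 pairs of times). On simulated counts 54% of genes changed 1.25-fold and 98% of those changed 2-fold were recovered, with 13 unchanged genes called among 5932 tested. A change of most genes was not simulated. A count of 0 allows up to 0.374 to 0.89 CPM (3 reads) in the 4 libraries, for counting error only. Unlike the other CPM values, these limits use library totals without the TMM factors.

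Members, gene lists, the naming rule and tests were chosen with earlier results of these data known. Genes were named as the 15 largest rises and falls among called genes with separate libraries and at least 10 CPM, 2 rises and 2 falls per list, fixed genes of the title, osmostress and mating type, and 5 high genes that were not called. Those added after their values were seen, besides any the text marks so, are RPS27A, RPL22B, TIF4632, DED1, RPT2, RPN1, PRE3, SDA1, NOP58, HTB1, IME1, NDT80 and PBP1. Lists were described by counts and medians, with no set test. Alternatives were DESeq2 1.42.0, other scalings and filters, the replicate block, rounding, overlaps and leaving out a library. Software was R 4.3.3, Python 3.11.15, pandas 2.3.3 and matplotlib 3.10.9.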

Additional observations from a re-analysis of the deposited data

How the results depend on the processing

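Of 257 named genes, 257 kept their direction and side of the threshold with the replicate block (2102 genes higher and 2047 lower; 352 and 448 at least 2-fold), with RLE factors, without a filter and with split reads rounded down. With library size alone 3288 genes were higher and 1172 lower, 733 at least 2-fold higher and 224 at least 2-fold lower (3522 and 1126 higher and lower for 1.5 h against 1 h). It raised the median of all genes by 0.288 (log2). The signs of GPD2 (0.057), CCT4 (0.084), TRR1 (0.028), ALD6 (0.038), CMD1 (0.14), TPK3 (0.033), IME4 (0.13), CTT1 (0.27), GPP2 (0.22), GPP1 (0.26) and TSL1 (0.28) turned positive, and 11 other genes lost their call. DESeq2 called 1749 higher and 1706 lower, and 449 and 294 for 2 h against 1.5 h (edgeR 922 and 563). Leaving out 1 of the 4 libraries gave 1733 to 1940 higher, 1763 to 1905 lower, 345 to 364 at least 2-fold higher and 444 to 486 at least 2-fold lower. The lone library is then assumed to vary like the others. Without 2 h replicate b, 555 genes were higher and 304 lower for 2 h against 1.5 h. Without 1 h replicate b, 7 named genes lost their call, and without 2 h replicate b 6. Series a had the lower depth, which limits low genes most. The cause of these shifts was not tested, apart from the constant that scaling adds.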

Other observations

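Coding sequences without a gene symbol, with retrotransposon frames left out, were read as a group formed after the values were seen. Of 602 tested, 196 were higher and 132 lower at 2 h than at 1 h, and 50 were at least 2-fold higher and 28 at least 2-fold lower, with a median log2 fold change of 0.08. Among all genes tested 35.1% were higher and 33.9% lower, 5.97% and 7.56% by at least 2-fold. The share of this group that was higher lies near that of all genes, while the share that was lower is smaller. By at least 2-fold, its share of higher genes is larger and its share of lower genes smaller. Their summed level was 33570 and 33790 CPM at 2 h, against 36200 and 36130 CPM at 1 h. Genes in none of the 63 lists numbered 4173, of which 1488 were higher and 1190 lower, with 230 at least 2-fold higher and 170 at least 2-fold lower. Their share of higher genes is also near that of all genes, while their share of lower genes is smaller.

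Of 27 stress transcription factor genes 14 rose and 6 fell (35.1% and 33.9% over all genes tested), with a median log2 fold change of 0.25. With library size alone 20 rose and 2 fell. YAP7 and SOK2 fell the most, by 0.56 and 0.53 on the log2 scale. YAP6, a leucine zipper factor linked to salt tolerance, had 47.6 and 41.2 CPM at 2 h and 12.8 and 10.5 CPM at 1 h (log2 fold change 1.95, SE 0.15, adjusted p 5.5e-10). COM2, a zinc finger factor of the same list, had 212 and 201 CPM at 2 h and 78.0 and 80.8 CPM at 1 h (log2 fold change 1.37, SE 0.062, adjusted p 1.9e-13). In other lists, STP4, a zinc finger protein, had 182 and 181 CPM at 2 h and 57.8 and 55.4 CPM at 1 h (log2 fold change 1.69, SE 0.077, adjusted p 2.2e-13). STP4 had 810 and 734 CPM at 0 h, so its 2 h level was still below that before stress. CYR1, the adenylate cyclase of the Ras pathway, had 329.8 and 316 CPM at 2 h and 149 and 154 CPM at 1 h (log2 fold change 1.08, SE 0.053, adjusted p 5.8e-13). The 2 h and 1 h libraries did not overlap in YAP6, COM2, STP4 and CYR1, as the naming rule required. Each was also higher at 2 h than at 1.5 h (log2 fold changes of 0.36, 0.49, 0.57 and 0.28).

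GSP2, a Ran GTPase gene of nuclear transport, had 220.5 and 228 CPM at 2 h and 75.3 and 82.0 CPM at 1 h (log2 fold change 1.50, SE 0.07, adjusted p 3e-13), and its near-identical partner GSP1 328 and 340.5 CPM at 2 h and 607 and 615 CPM at 1 h (log2 fold change -0.87, SE 0.053, adjusted p 2.1e-11). MSN5, an exportin, rose by 0.89. Among 17 transport receptors and Ran genes 3 rose and 8 fell (35.1% and 33.9% over all genes tested). Their median of -0.15 turned to 0.14 with library size alone.

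URA3, a gene this strain lacks, had 4 and 0 reads in the 2 h libraries and 4 and 0 reads in the 1 h libraries of series a and b. It had 162 reads in the 0.5 h library of series a and 0 in that of series b.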
